A study of Rattus norvegicus with 6 samples.

Results

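The 10 genes described here encode the enzymes that remove ubiquitin from histone H2A and the core of Polycomb repressive complex 2 (PRC2). They are Bap1, Asxl1 and Asxl2 of the Polycomb repressive deubiquitinase (PR-DUB), the further H2A deubiquitinases Usp16, Usp21 and Mysm1, and the PRC2 subunits Ezh1, Ezh2, Suz12 and Eed. They were chosen by name, for the complex their proteins belong to, and not by a measured value. Each name matched 1 row, so that they make up 10 of the 32623 genes in the table.

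RNA sequencing was performed on myocardial tissue from rats of WT genotype, with 3 sham samples and 3 ischemia samples, and the question put to these genes was whether the machinery that removes H2A ubiquitin or writes H3K27 methylation changed its mRNA in ischemia. All rats were described as male, and anesthesia, mechanical ventilation and a left thoracotomy are given for both groups. In the ischemia group the left anterior descending coronary artery was tied, the titles of all samples give 30 min, and no ligation is described for the sham group. Strain, age and the part of the heart that was taken are not given in the sources used here, and since no source says more about the replicates than their separate titles, p-values measure the spread between these samples only.

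Libraries held 68529126 to 79591989 counts, and mitochondrial genes took 15.4% to 21.4% of them. The tissue label was met by the cardiomyocyte markers, 9 of 10 of which were in the table and all of these were tested, with a summed level of 12045 to 42804 FPKM (fragments scaled by transcript length in kilobases and by library size). Libraries stood apart in 3 respects. Sham replicate 1 held 26 counts of the Y-linked genes Ddx3y, Kdm5d and Eif2s3y, against 1772 to 4318 in the other samples, although all rats were described as male. The sham group was split by markers of the heart chambers: the summed atrial marker level was 48468 and 39440 FPKM in sham replicates 1 and 3 but 253 FPKM in sham replicate 2, and 9646, 2084 and 1289 FPKM in the ischemia samples. Myl4, the atrial essential light chain, was at 4937 and 7312 FPKM in sham replicates 1 and 3 and at 14.3 FPKM in sham replicate 2, near the 13.3 and 12.2 FPKM of ischemia replicates 2 and 3, while ischemia replicate 1 was at 1000.0 FPKM. Myl3, the ventricular light chain, ran the other way, at 796 and 1021 FPKM in sham replicates 1 and 3, 9024 FPKM in sham replicate 2 and 3180 to 5780 FPKM in ischemia. Chamber markers therefore differed between 2 of 3 sham samples and the ischemia samples, and over these samples chamber and ischemia cannot be fully told apart. Ischemia replicate 2 had a summed neutrophil and monocyte marker level of 8871 FPKM, against 1331 and 2110 FPKM in the other ischemia samples and 158 to 221 FPKM in sham. Each member is therefore also given without sham replicate 1, without sham replicate 2 and without ischemia replicate 2, as its log2 fold change. Without sham replicate 2 the sham group keeps only the samples with high atrial markers. Estimates without sham replicate 3 are not given for each member and enter only the ranges with 1 sample left out.

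Polycomb proteins keep genes silent through marks on histones. Polycomb repressive complex 1 (PRC1) attaches a single ubiquitin to histone H2A, and the deubiquitinases take it off again. PRC2 methylates lysine 27 of histone H3 through Ezh1 or Ezh2, its alternative catalytic subunits, and needs Suz12 and Eed to be stable and active. Ezh2 is known as the form of dividing cells and Ezh1 as the form that prevails in resting tissue such as the adult heart.

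The promoters of 5 members are shown, each with a single window: Ezh2, Suz12, Eed and Usp16 because their values varied most among the members with 1 window, and Bap1 as the most abundant member and 1 of those that were steady between samples. Each window runs from 250 bases before to 50 bases after the annotated transcription start, 5′ to 3′ on the strand of the gene, in RefSeq on the GRCr8 build: Ezh2 at chr4:77687134-77687433 (minus strand), Suz12 at chr10:65464719-65465018 (plus), Eed at chr1:153307451-153307750 (minus), Usp16 at chr11:40167416-40167715 (plus) and Bap1 at chr16:6452876-6453175 (plus). Capitals mark exact matches, on either strand, to E2F (TTTCCCGC or TTTGGCGC), NRF1 (GCGCATGC), ETS (CCGGAAGT), YY1 (AAGATGGC) and the CCAAT box.
Ezh2: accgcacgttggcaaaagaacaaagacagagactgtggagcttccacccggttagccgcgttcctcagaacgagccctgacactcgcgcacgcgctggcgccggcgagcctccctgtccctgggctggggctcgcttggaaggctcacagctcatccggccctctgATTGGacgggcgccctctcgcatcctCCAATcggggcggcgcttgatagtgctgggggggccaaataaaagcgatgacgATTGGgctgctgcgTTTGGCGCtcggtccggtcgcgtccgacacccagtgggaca
Suz12: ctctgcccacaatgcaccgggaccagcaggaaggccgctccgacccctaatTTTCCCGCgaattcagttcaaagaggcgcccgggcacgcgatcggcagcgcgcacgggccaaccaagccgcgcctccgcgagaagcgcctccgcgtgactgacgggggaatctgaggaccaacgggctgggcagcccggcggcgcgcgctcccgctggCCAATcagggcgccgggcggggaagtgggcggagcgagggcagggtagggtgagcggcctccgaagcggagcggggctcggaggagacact
Eed: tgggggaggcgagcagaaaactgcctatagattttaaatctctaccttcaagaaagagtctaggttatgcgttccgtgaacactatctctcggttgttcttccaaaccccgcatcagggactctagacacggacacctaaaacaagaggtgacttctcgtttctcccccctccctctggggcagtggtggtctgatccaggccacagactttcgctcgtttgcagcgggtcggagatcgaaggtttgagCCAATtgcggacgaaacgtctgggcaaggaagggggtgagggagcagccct
Usp16: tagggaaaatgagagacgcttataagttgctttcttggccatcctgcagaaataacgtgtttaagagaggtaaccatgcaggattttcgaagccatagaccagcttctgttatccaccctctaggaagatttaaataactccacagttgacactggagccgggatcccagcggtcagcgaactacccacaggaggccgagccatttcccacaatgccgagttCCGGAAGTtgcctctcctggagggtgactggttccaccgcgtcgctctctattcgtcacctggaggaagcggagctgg
Bap1: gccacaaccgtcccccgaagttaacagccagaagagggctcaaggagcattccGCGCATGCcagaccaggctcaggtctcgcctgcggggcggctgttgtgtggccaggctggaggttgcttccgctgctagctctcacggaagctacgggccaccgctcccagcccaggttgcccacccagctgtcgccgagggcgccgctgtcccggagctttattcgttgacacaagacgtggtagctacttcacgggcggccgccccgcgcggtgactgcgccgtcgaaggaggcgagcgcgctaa

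An E2F match lay in the windows of Ezh2 (bases 260 to 267) and Suz12 (bases 52 to 59), counted from the 5′ end of the window, and 1.45% of all 33469 RefSeq windows of 300 bases held one. Both also held CCAAT boxes, with 3 in Ezh2 and 1 in Suz12, and Eed held 1 CCAAT box and no other match. CCAAT is short and stood in 37.5% of all windows. Usp16 held an ETS match (bases 223 to 230), found in 3.81% of windows, and Bap1 an NRF1 match (bases 54 to 61), found in 2.47%. No match overlapped another in these windows. The Suz12, Bap1 and Ezh2 windows were rich in GC, with 71.3%, 66.7% and 64.7%, and those of Eed and Usp16 had 53.7% and 52.0%, against a median of 51.7% over all windows. Of the 10 members, 9 had at least 1 RefSeq window and 7 had exactly 1. Among these 7, the GC box (GGGCGG, not capitalised) was in 5 and TATAAA in 0, against 33.1% and 14.2% of all windows. The YY1 match was in Usp21, and in 3.17% of windows. A match describes letters in the window and not a bound factor.

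None of the 10 members passed an adjusted p of 0.05 between ischemia and sham. All 10 were among the 13964 tested genes, of which 6.71% were called by the quasi-likelihood test of edgeR, 723 higher and 214 lower in ischemia. The adjusted p of the members ran from 0.149 to 0.834. DESeq2 called 0 members and 27.3% of tested genes, and limma called 0 members with either pseudocount (0.1 or 1) and 7.96% or 6.20% of tested genes. A single member, Usp16, had an unadjusted edgeR p under 0.05, which 32.4% of tested genes had. The FPKM of the groups did not overlap for 1 of 10 members, again Usp16, against 38.6% of tested genes. The log2 fold change was above 0 for 7 of 10 members, with a median of 0.23, where 49.9% of tested genes were above 0 and their median was -0.001. Without sham replicate 1 no estimate changed sign, and edgeR called 0% of tested genes, so that its 0 calls among the members carry no information. With the atrial marker level as a covariate edgeR also called 0% of tested genes. The estimates of Usp16, Ezh2 and Mysm1 were then higher, at 1.51, 1.18 and 0.68. Those of Suz12 and Eed were lower, at 0.46 and 0.52, and that of Asxl1 was below 0, at -0.097. Asxl2, Bap1, Usp21 and Ezh1 were at 0.23, -0.054, -0.16 and -0.17.

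**Figure D1:**
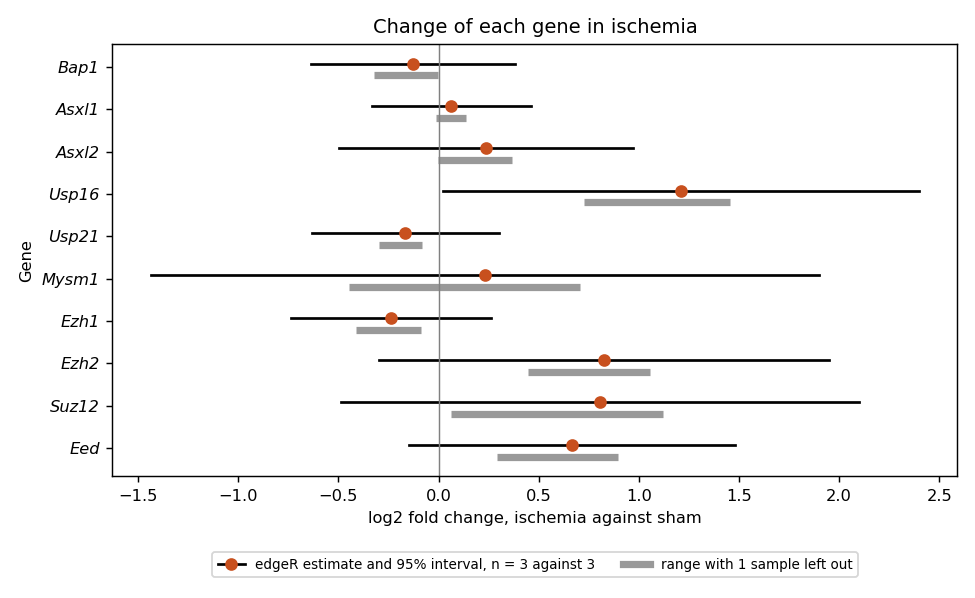
log2 fold change of each gene in ischemia against sham from edgeR (point) with its 95% interval (line, n = 3 against 3), and the range of the estimate when each of the 6 samples was left out in turn (grey bar). The interval of Usp16, from 0.02 to 2.40, is the only one that does not include 0, and the grey bars of Asxl1, Asxl2 and Mysm1 cross 0.

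Bap1, the catalytic subunit of PR-DUB, was the most abundant member. In order of the replicate numbers, as throughout, its FPKM was 28.3, 24.1 and 24.7 for sham, and for ischemia it was 30.7, 22.0 and 22.3. The ischemia values lay on both sides of the sham values, and the highest sample was only 1.40 times the lowest. The log2 fold change was -0.13 ± 0.21 (SE), with a 95% interval from -0.64 to 0.38 (edgeR adjusted p = 0.695). It was -0.11 without sham replicate 1, -0.067 without sham replicate 2 and -0.0051 without ischemia replicate 2. In the positions of the deposited table, whose genome build is not named, Bap1 (ENSRNOG00000019097) spans 7336685 to 7345511 on the plus strand of chromosome 16.

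Asxl1 and Asxl2 are alternative partners that switch on Bap1. Asxl1 (ENSRNOG00000061603, chromosome 3, 148837814 to 148900452, plus) had FPKM of 7.18, 6.60 and 6.88 in sham and 6.93, 9.02 and 7.17 in ischemia. Both groups overlapped, with ischemia replicate 2 the highest, and the log2 fold change was 0.06 ± 0.16 (95% interval -0.33 to 0.46, edgeR adjusted p = 0.809). Asxl2 (ENSRNOG00000011908, chromosome 6, 27887797 to 27915563, plus) was the least abundant member, with FPKM of 1.26, 0.75 and 1.20 in sham and 1.03, 1.84 and 1.12 in ischemia. Here sham replicate 2 was the lowest and ischemia replicate 2 the highest sample, and the log2 fold change was 0.24 ± 0.30 (95% interval -0.50 to 0.97, edgeR adjusted p = 0.609). Without ischemia replicate 2 both estimates were close to 0, at -0.011 for Asxl1 and -0.0030 for Asxl2. They were 0.044 and 0.33 without sham replicate 1, and 0.14 and 0.11 without sham replicate 2. The Asxl2 to Asxl1 ratio of FPKM was 0.176, 0.114 and 0.174 in sham and 0.149, 0.204 and 0.157 in ischemia, so that Asxl1 was the more abundant of the pair in every sample. The difference in log2 ratio was 0.15, with a two-sided exact permutation p = 0.7 (0.7 adjusted over 3 ratios).

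Usp16, a deubiquitinase of H2A in chromatin that acts when cells divide, had the largest estimate of the 10. Its FPKM was 4.96, 1.61 and 5.11 in sham and 5.52, 15.5 and 7.17 in ischemia. Each ischemia sample was above each sham sample, but ischemia replicate 1 exceeded sham replicate 3 only slightly, whereas ischemia replicate 2 was 2.45 times the mean of the other ischemia samples and the other sham samples averaged 3.13 times sham replicate 2. The log2 fold change was 1.21 ± 0.49 (95% interval 0.02 to 2.40, edgeR adjusted p = 0.149, unadjusted p = 0.047). It was 0.72 without ischemia replicate 2, 0.88 without sham replicate 2, 0.41 without both and 1.40 without sham replicate 1.

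Usp16 (ENSRNOG00000001598, chromosome 11, 27101227 to 27130341, plus) shares its last 170 bases with Cct8, a chaperonin subunit gene on the opposite strand. Cct8 was the more abundant, with FPKM of 50.9, 26.4 and 44.4 in sham and 54.1, 92.2 and 63.3 in ischemia. It too was lowest in sham replicate 2 and highest in ischemia replicate 2, and its log2 fold change was 0.71 ± 0.26 (edgeR adjusted p = 0.119). The library kit marks strand, but the counting mode is not given in the sources used here, and the part of Cct8 in the Usp16 values was not tested.

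Usp21, a further deubiquitinase of H2A, was steady. Its FPKM was 9.86, 10.2 and 11.7 in sham and 11.5, 9.78 and 8.89 in ischemia, with the lowest and the highest sample only 1.31-fold apart. The groups overlapped, and the log2 fold change was -0.17 ± 0.19 (95% interval -0.63 to 0.30, edgeR adjusted p = 0.572). Without sham replicate 1 it was -0.26, without sham replicate 2 -0.083 and without ischemia replicate 2 -0.10. Mysm1, a metalloprotease that deubiquitinates H2A and is best known from blood stem cells, was the opposite case. Its FPKM was 2.62, 0.46 and 1.86 in sham and 0.89, 3.68 and 1.47 in ischemia, a 7.94-fold range. The highest and the lowest value both came from samples numbered 2, and sham replicates 1 and 3 were above ischemia replicates 1 and 3. The log2 fold change of 0.23 ± 0.69 had the widest interval of all members, from -1.44 to 1.90 (edgeR adjusted p = 0.834). It was -0.19 without sham replicate 2, -0.45 without ischemia replicate 2, -0.85 without both and 0.71 without sham replicate 1. Usp21 (ENSRNOG00000038347) lies on chromosome 13, 89655064 to 89661150, minus, and Mysm1 (ENSRNOG00000026299) on chromosome 5, 113906803 to 113939127, minus. Mysm1 holds a copy of the small nucleolar RNA SNORA70, which had 0 counts in every sample.

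**Figure D2:**
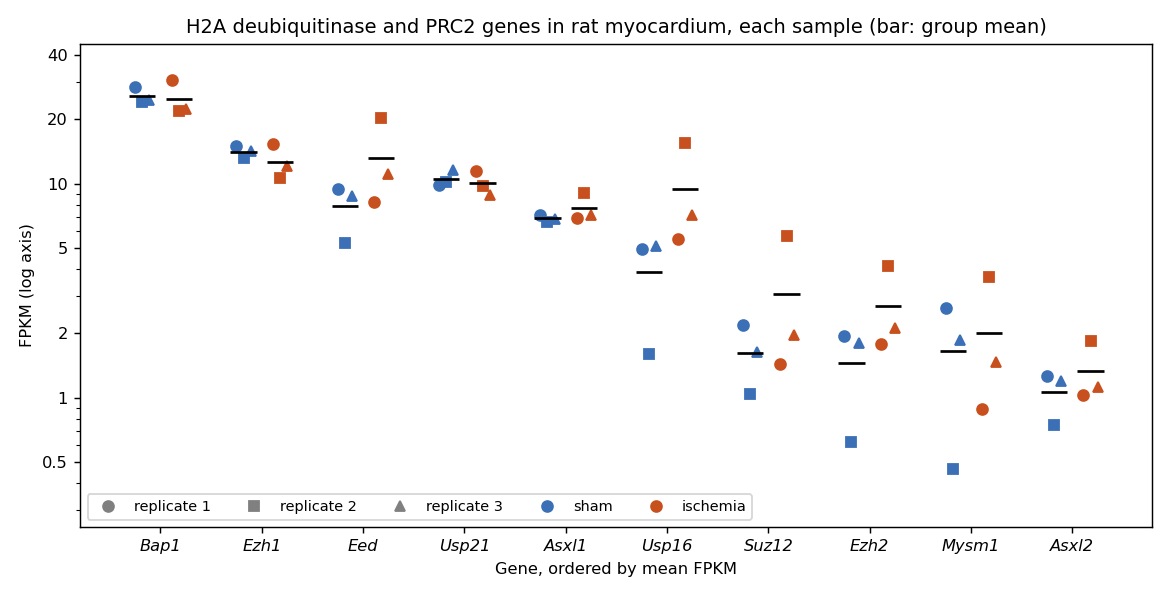
FPKM (log axis) of each gene in each of the 6 samples, with sham in blue, ischemia in orange, the symbol giving the replicate number and the bar the group mean (n = 3). Bap1, Ezh1, Usp21 and Asxl1 stay within 1.45-fold, and in the other genes the lowest point is sham replicate 2 and the highest ischemia replicate 2.

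Ezh1 was the main catalytic subunit of PRC2 in this tissue by mRNA level. Its FPKM was 15.0, 13.2 and 14.2 in sham and 15.3, 10.6 and 12.2 in ischemia. Sham and ischemia overlapped, ischemia replicate 1 being the highest of all samples, and the log2 fold change was -0.24 ± 0.21 (95% interval -0.74 to 0.26, edgeR adjusted p = 0.447). It was -0.25 without sham replicate 1, -0.18 without sham replicate 2 and -0.088 without ischemia replicate 2. Ezh2 had FPKM of 1.94, 0.62 and 1.81 in sham and 1.79, 4.14 and 2.13 in ischemia. Outside the samples numbered 2 its values lay between 1.79 and 2.13. The log2 fold change of 0.83 ± 0.47 (95% interval -0.30 to 1.95, edgeR adjusted p = 0.257) was 0.45 without ischemia replicate 2 and 0.14 without both samples numbered 2. It was 1.06 without sham replicate 1 and 0.505 without sham replicate 2. Ezh1 (ENSRNOG00000020336) spans 89104027 to 89130339 on the minus strand of chromosome 10, and Ezh2 (ENSRNOG00000006048) 77284404 to 77347011 on the minus strand of chromosome 4.

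The Ezh1 to Ezh2 ratio of FPKM was 7.72, 21.4 and 7.87 in sham and 8.54, 2.56 and 5.71 in ischemia. Ezh1 thus made up 88.5%, 95.5% and 88.7% of the summed Ezh1 and Ezh2 level in sham and 89.5%, 71.9% and 85.1% in ischemia, and exceeded Ezh2 in every sample. The log2 ratio was 3.45 ± 0.84 (SD, n = 3) in sham and 2.32 ± 0.89 in ischemia. The groups overlapped, and their difference of -1.13 did not pass the test (two-sided exact permutation p = 0.3, 0.45 adjusted over 3 ratios). It was -0.16 without the samples numbered 2.

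Suz12, the scaffold of PRC2, had FPKM of 2.19, 1.04 and 1.63 in sham and 1.43, 5.73 and 1.97 in ischemia. Ischemia replicate 2 was 3.37 times the mean of the other ischemia samples, which both lay within the sham range. The log2 fold change was 0.81 ± 0.54 (95% interval -0.49 to 2.10, edgeR adjusted p = 0.325), and it was 0.06 without ischemia replicate 2, -0.095 without both samples numbered 2, 0.63 without sham replicate 2 and 1.03 without sham replicate 1. Eed, the subunit that reads methylated lysine 27 and stimulates the enzyme, had FPKM of 9.49, 5.30 and 8.80 in sham and 8.21, 20.4 and 11.2 in ischemia. Ischemia replicate 1 lay inside the sham range and the other ischemia samples above it, with a log2 fold change of 0.67 ± 0.34 (95% interval -0.15 to 1.48, edgeR adjusted p = 0.217). The estimate was 0.29 without ischemia replicate 2, 0.52 without sham replicate 2 and 0.78 without sham replicate 1. Suz12 (ENSRNOG00000058663) lies on chromosome 10, 67325347 to 67369668, plus, and Eed (ENSRNOG00000017509) on chromosome 1, 154189260 to 154216340, minus.

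Subunits of the same complex differed in their profiles. Suz12, Eed and Ezh2 each had their lowest FPKM in sham replicate 2 and their highest in ischemia replicate 2, and Ezh1 did not, while in PR-DUB Bap1 was steady and Asxl2 moved 2.45-fold. Between the lowest and the highest FPKM of the samples the fold was 9.66 for Usp16, 7.94 for Mysm1, 6.69 for Ezh2, 5.50 for Suz12 and 3.84 for Eed. These 5 members exceeded the median of 2.77-fold over all tested genes, and the other 5 did not. In FPKM, 7 of the 10 members were lowest in sham replicate 2 and highest in ischemia replicate 2, a pattern seen after the values were known and held by 26.9% of tested genes. In TMM-scaled CPM, where sham replicate 2 had a scaling factor of 0.834, these were 6 members, without Asxl1, and 14.5% of tested genes. Bap1 and Ezh1 had their lowest FPKM in ischemia replicate 2, and Usp21 in ischemia replicate 3.

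**Figure D3:**
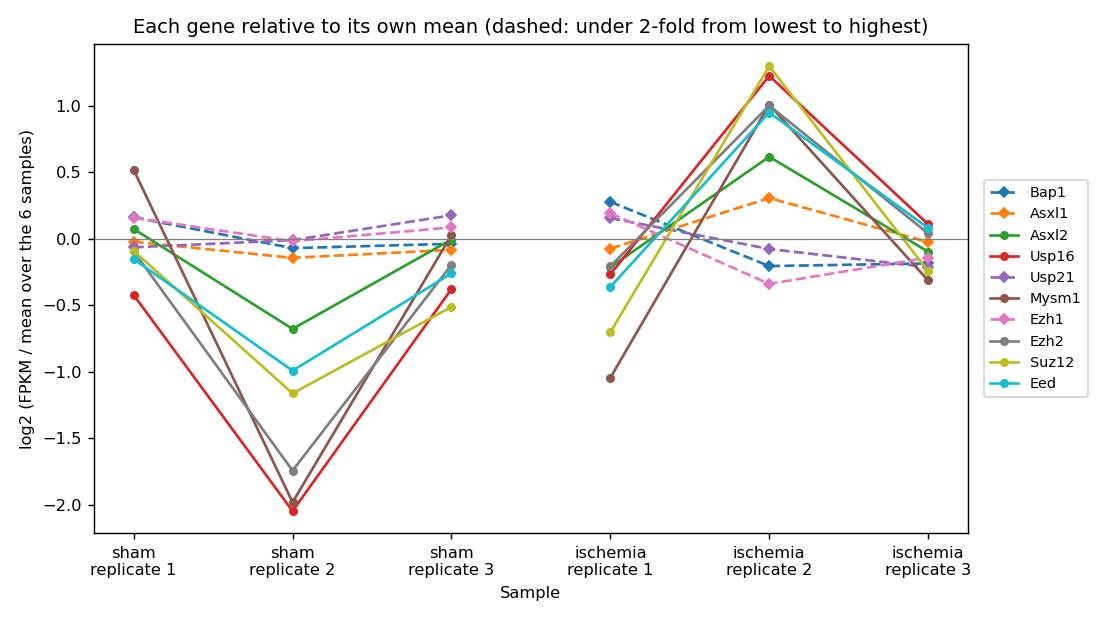
log2 of each gene's FPKM over its own mean across the 6 samples, with solid lines for the 6 genes over 2-fold from lowest to highest sample and dashed lines for the others. The solid lines dip at sham replicate 2 and peak at ischemia replicate 2, and the dashed lines stay near 0.

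In order of mean FPKM over the 6 samples (± SD), Bap1 stood at 25.3 ± 3.47, Ezh1 at 13.4 ± 1.80, Eed at 10.6 ± 5.17, Usp21 at 10.3 ± 1.07 and Asxl1 at 7.30 ± 0.87. The lower levels were 6.65 ± 4.71 for Usp16, 2.33 ± 1.71 for Suz12, 2.07 ± 1.15 for Ezh2, 1.83 ± 1.18 for Mysm1 and 1.20 ± 0.36 for Asxl2. Bap1 and Ezh1 were the only neighbours in this order whose ranges did not overlap. Bap1 held between 43.1% and 66.2% of the summed FPKM of the 4 catalytic deubiquitinases, the lowest share being that of ischemia replicate 2, where Usp16 was high.

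The writers and erasers of H2A ubiquitin were also set against each other within each sample, as the FPKM of the PRC1 ligases Rnf2 and Ring1 over that of Bap1, Usp16, Usp21 and Mysm1. The ratio was 0.617, 0.623 and 0.652 in sham and 0.562, 0.541 and 0.556 in ischemia. These groups did not overlap, and the log2 ratio was -0.67 ± 0.04 (SD, n = 3) in sham and -0.85 ± 0.03 in ischemia. A difference of -0.19 exceeded the SD of either group, and its two-sided exact permutation p = 0.1 is the smallest that 3 samples against 3 allow (0.3 adjusted over 3 ratios). It was -0.18 without the samples numbered 2 and -0.21 without sham replicate 1, and -0.13 from raw counts. The deubiquitinase sum was 45.8, 36.4 and 43.3 FPKM in sham and 48.6, 51.0 and 39.8 in ischemia, and the ligase sum 28.3, 22.7 and 28.2 against 27.3, 27.6 and 22.1. Both sums overlapped between the groups. Neither ligase passed the test, with log2 fold changes of -0.31 ± 0.22 for Ring1 and 0.18 ± 0.24 for Rnf2 (edgeR adjusted p = 0.362 and 0.626).

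**Figure D4:**
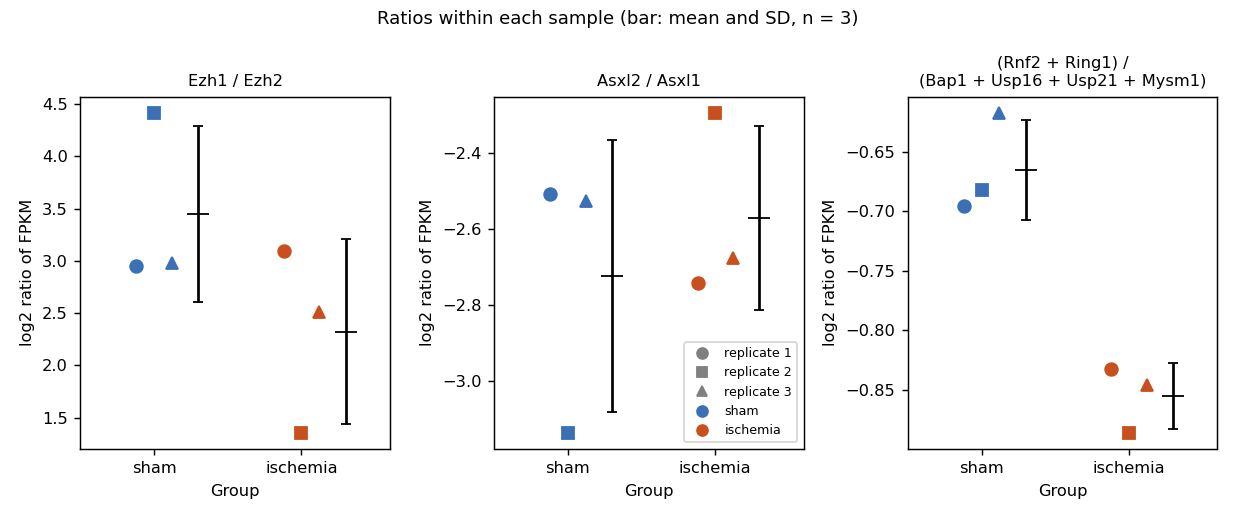
log2 of the FPKM ratio of Ezh1 to Ezh2, of Asxl2 to Asxl1 and of the H2A ubiquitin ligases to the deubiquitinases in each sample (symbols), with group mean and SD (bars, n = 3) on a separate axis for each ratio. The groups overlap in the first and second panels, and in the third the sham samples lie between -0.70 and -0.62 and the ischemia samples between -0.89 and -0.83.

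Around the members, none of the 48 tested genes in 5 lists (52 listed) passed the adjusted threshold of edgeR, against 6.71% of all tested genes, while 9 had an unadjusted p under 0.05, against 32.4% of all tested genes. DESeq2 called 7 of the 48, where it called 27.3% of all tested genes. Their log2 fold change was above 0 for 27, against 49.9% of all tested genes, with a median of 0.13. Among the PR-DUB accessory proteins 7 of 8 were tested, with a median of -0.003. They ran from -0.80 ± 0.27 for Mbd5, a methyl-binding-domain partner (edgeR adjusted p = 0.110), to 0.67 ± 0.21 for Foxk2, a forkhead factor that brings PR-DUB to chromatin (0.0881). Foxk2 had FPKM of 9.35, 7.42 and 8.35 in sham and 11.0, 18.7 and 13.1 in ischemia, which did not overlap, as for 38.6% of all tested genes. Of the other histone deubiquitinases and partners 12 of 14 were tested, with a median of 0.40, from -0.42 ± 0.22 for Usp46 to 0.999 ± 0.49 for Usp27x (edgeR adjusted p = 0.223 and 0.205).

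Of the PRC2 accessory subunits 8 of 9 were tested, with a median log2 fold change of 0.43. The lowest was Phf1, a Polycomb-like subunit that guides PRC2 to its sites, at -0.45 ± 0.18, and the highest Epop at 0.93 ± 0.85 (edgeR adjusted p = 0.143 and 0.470). The demethylases that undo PRC2's mark were Kdm6a, at 0.03 ± 0.42, and Kdm6b, at 0.70 ± 0.48 (edgeR adjusted p = 0.969 and 0.335). Kdm6b had FPKM of 9.54, 10.3 and 8.88 in sham and 8.77, 32.2 and 10.7 in ischemia, so that ischemia replicate 2 alone was high. PRC1, with 19 of 19 genes tested and a median of -0.18, ran from -1.50 ± 0.46 for Cbx7, a reader of methylated lysine 27, to 1.67 ± 0.48 for Pcgf6 (edgeR adjusted p = 0.0876 and 0.0777). Cbx7 had FPKM of 15.7, 8.12 and 12.6 in sham and 7.25, 2.34 and 3.62 in ischemia. These did not overlap, as for 38.6% of all tested genes, and Cbx7 did not pass the test. Known Polycomb target genes, such as Hox genes and Cdkn2a, were below the filter, with 14 of 16 in the table, 0 tested and no value above 1.11 FPKM.

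By the root mean square difference of centred log2 CPM (counts scaled by library size) over the 6 samples, the profiles nearest to Ezh1 were those of Med24 (0.039), Mrps25 (0.039) and Babam1 (0.040). Those nearest to Ezh2 were Taf1 (0.059), Dse (0.101) and Ssb (0.108). These are descriptions of likeness over 6 samples, without a test.

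Marker lists of cell types and of division were set beside the members. Of 17 proliferation markers 10 were tested, 6 had an unadjusted p under 0.05 (32.4% of all tested genes) and 3 passed the adjusted threshold (6.71% of all tested genes). These 3 rose in ischemia and are subunits of the replicative helicase: Mcm3 by 2.07 ± 0.27, Mcm6 by 1.77 ± 0.32 and Mcm5 by 1.82 ± 0.40 on the log2 scale (edgeR adjusted p = 0.0272, 0.0379 and 0.0492). Mcm2, of the same helicase, was at 0.68 ± 0.19 and did not pass the threshold (edgeR adjusted p = 0.0774). Pcna, the polymerase clamp, was at 0.86 ± 0.24 and Rrm2 and Tyms, enzymes of nucleotide synthesis, were at 1.90 ± 0.63 and -0.56 ± 0.29 without passing it (edgeR adjusted p = 0.0767, 0.104 and 0.219). Markers of mitosis did not pass the test, with Cdk1 at 0.05 ± 0.37, Ccnb1 at -0.22 ± 0.41 and Birc5 at -0.23 ± 0.46 (edgeR adjusted p = 0.936, 0.728 and 0.743), and Mki67, Top2a, Aurkb, Bub1 and Ccna2 were below the filter. The summed proliferation level was 51.3, 34.5 and 46.6 FPKM in sham and 63.6, 109 and 85.2 FPKM in ischemia. This sum was lowest in sham replicate 2 and highest in ischemia replicate 2, as for 7 members in FPKM. Pcna was its largest part, with 18.6 FPKM in sham replicate 2 and 64.5 FPKM in ischemia replicate 2. Among the tested markers Pcna, Mcm6 and Rrm2 had this pattern, and Mcm2, Mcm3, Mcm5, Cdk1, Ccnb1, Tyms and Birc5 did not.

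Of 21 neutrophil and monocyte markers 16 were tested, and all 16 had a log2 fold change above 0, with a median of 4.06. Of these, 11 passed the adjusted threshold of edgeR (6.71% of all tested genes) and 14 had an unadjusted p under 0.05 (32.4% of all tested genes). The sum was 158 to 221 FPKM in sham and 1331 to 8871 FPKM in ischemia. Fpr1 was without reads in every sample but ischemia replicate 2. The cardiomyocyte sum ran the other way from the variable members, at 27335, 42804 and 25662 FPKM in sham and 23481, 12045 and 22185 FPKM in ischemia, with 0 of 9 tested markers called by edgeR (3 at an unadjusted p under 0.05, which 32.4% of all tested genes had). The atrial list, whose sum was above that of every ischemia sample in sham replicates 1 and 3 and below it in sham replicate 2, had 0 of 7 called (2 at an unadjusted p under 0.05). The ventricular light chain Myl2, a cardiomyocyte marker, was at 366 and 346 FPKM in sham replicates 1 and 3, 2795 FPKM in sham replicate 2 and 594 to 1315 FPKM in ischemia. Endothelial markers summed to 238 to 253 FPKM in sham and 265 to 277 FPKM in ischemia, with 0 of 7 called (2 at an unadjusted p under 0.05). Fibroblast markers summed to 711 to 2295 FPKM in sham and 437 to 800 FPKM in ischemia, with a median log2 fold change of -0.95 over the 7 tested and 4 at an unadjusted p under 0.05. The only one called, Fn1, went against the rest of its list: it rose by 2.40 ± 0.50 (edgeR adjusted p = 0.0458), and the estimates of the others were below 0. Erythroid markers summed to 4289 to 7862 FPKM in sham and 5140 to 9987 FPKM in ischemia, with 0 of 5 called and none at an unadjusted p under 0.05. The part of these cell types in the member values was not tested, and in bulk tissue fewer cells of a type and less RNA per cell cannot be told apart.

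**Figure D5:**
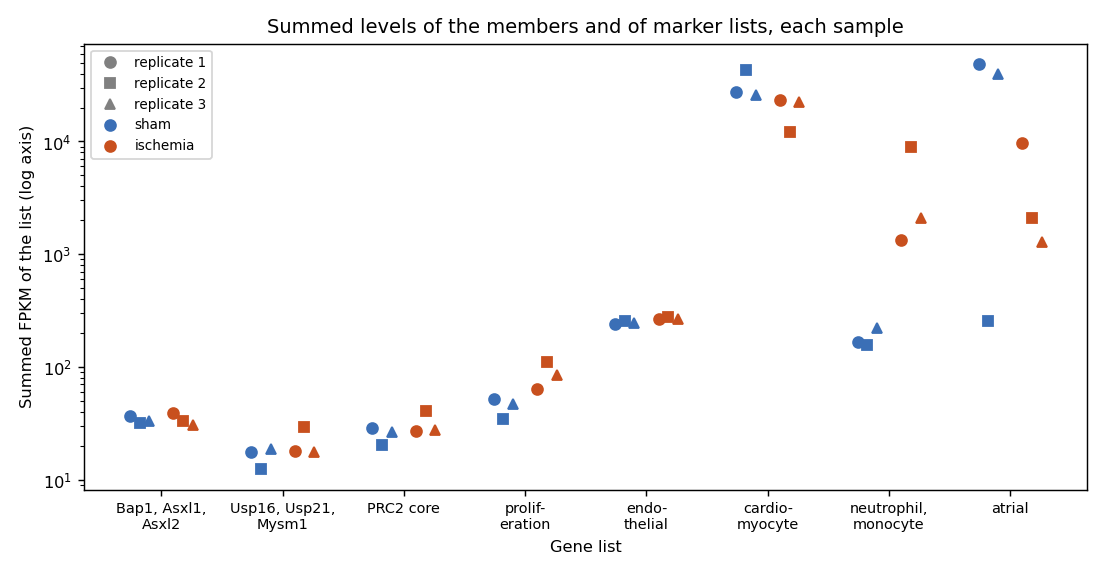
Summed FPKM (log axis) of the members by complex and of 5 marker lists in each sample, with sham in blue, ischemia in orange and the symbol giving the replicate number. The neutrophil and monocyte sum is higher in each ischemia sample than in any sham sample, and the sums of PRC2 and of Usp16, Usp21 and Mysm1 are lowest in sham replicate 2 and highest in ischemia replicate 2.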

How the data were processed

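Total RNA of rat myocardium had been sequenced from libraries of a strand-marking kit. The authors deposited 1 table with raw read counts per gene, which are not normalized, and FPKM values, in which genes without reads stand at 0.0001. The submitters' processing notes name STAR and HTSeq. Their versions and the genome build are not given in the sources used here. Groups came from the sample labels.

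Genes entered the test from a mean of 0.5 FPKM over all samples. Their counts were fitted in edgeR 4.0.16 (R 4.3.3, TMM scaling, quasi-likelihood F test, group only), with two-sided p-values adjusted by Benjamini-Hochberg over all tested genes. The script was tested on simulated data. Intervals are at 95%, and SEs were derived from the F statistic. Ratios were compared by exact permutation over samples (scipy 1.17.1). In these libraries 3 counts, the floor for a count of 0, are 0.0377 to 0.0438 CPM, and members had 96 to 9489 counts.

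All members are named. From each other list the genes past the threshold, or else those with the highest and the lowest fold change, are named, to at most 20 in all, so that most marker lists are given as sums. For Ezh1 and Ezh2 the 3 genes nearest in profile are named. Ring1, Rnf2, Cct8, SNORA70 and the Y-linked genes stand outside this rule, as do single markers and the genes named under other processing. The members and the lists were chosen with earlier results of these data known. Alternatives were DESeq2 1.42.0, limma 3.58.1 on log2(FPKM + 0.1) and log2(FPKM + 1), other filters and scalings, no mitochondrial genes, a replicate block, an atrial covariate, each sample left out and, chosen after seeing the data, both samples numbered 2 left out.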

Additional observations from a re-analysis of the deposited data

How the results depend on the processing

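Of 19 alternatives 13 called any gene, and none of these 13 called a member; the lowest adjusted p was 0.072 for Usp16 with DESeq2 (0.072 to 0.443 over its alternatives). Usp16, Ezh2, Eed, Ezh1 and Usp21 kept their direction in all alternatives that could be run for them (Usp16 0.41 to 1.51, Ezh2 0.14 to 1.18, Eed 0.16 to 0.89). With 1 sample left out Asxl1 ran from -0.011 to 0.14 and was -0.097 with the atrial covariate, Asxl2 ran from -0.0030 to 0.36, and Mysm1 ran from -0.45 to 0.71, below 0 without sham replicate 2 (-0.19) or ischemia replicate 2 (-0.45). Without both samples numbered 2, Asxl2 was -0.12, Mysm1 -0.85, Suz12 -0.095 and Bap1 0.064, and the Asxl2 to Asxl1 log2 ratio differed by -0.19. With 1 sample left out that ratio differed by -0.054 (without sham replicate 2) to 0.26. The cause was not tested. Of the genes in the 5 surrounding lists, DESeq2 called 7 (Cbx6, Cbx7, Pcgf5, Pcgf6, Atxn7l3, Mbd5 and Foxk2) and edgeR 0 to 5 with 1 sample left out (18.7% of all tested genes in the fit with 5), the 5 without ischemia replicate 1 being Cbx6, Cbx7, Pcgf5, Pcgf6 and Foxk2; the names were chosen after their values were seen.

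Calls over all genes depended strongly on single samples. Against 723 higher and 214 lower there were 0 and 0 without any one sham sample, without ischemia replicate 3 or with the atrial covariate, 1490 and 1115 without ischemia replicate 1, 462 and 109 without ischemia replicate 2, 57 and 13 without both samples numbered 2, 2071 and 1742 with DESeq2, 509 and 83 with total count scaling, and 493 and 93 without a filter. Same-numbered samples did not deviate together, with correlations from -0.20 to -0.056, against -0.046 to 0.20 for samples of different numbers. As deviations from means of only 3 samples, these values cannot exclude a pairing. With the replicate block edgeR called 0 and 0 of all genes and no member, with Usp16 at 1.17 (edgeR adjusted p = 0.325). The block leaves the differences in ratio unchanged by construction, so it is no check of their direction. Asxl2, Mysm1, Ezh2 and Suz12 miss the filter of a mean FPKM of 5. No member changed direction under the other scalings. With 3 samples a group, precision is low: the widest member interval, that of Mysm1, ran from -1.44 to 1.90.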
